A study of Mus musculus with 104 samples.

Results

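The data described here are whole-cerebellum expression arrays of male C57BL/6 mice, compared between 21-23 and 2-3 months of age. Members were chosen by the strain, tissue and age given for each sample, and they comprise 6 aged and 4 young arrays, 10 of the 104 samples of the series. A further 2 cerebellum arrays of the same strain, from mice of 12-13 months, were fitted together with them. The series measured how mRNA levels in cerebellum and hypothalamus change with age in C57BL/6 and BALB mice, which had first been monitored for behavior. All C57BL/6 cerebellum samples came from singly housed male mice of the NIA aged rodent colony, 1 mouse per array, and no engineered allele or drug is given for any of them. C57BL/6 is an inbred laboratory strain, so the groups differ in age only as far as the labels say. Whole tissue was extracted, the RNA was amplified in 1 round, labelled with Cy3 and hybridised to Agilent whole mouse genome arrays, whose probes are 60 bases long.

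The cerebellum is built of densely packed granule cells, Purkinje cells, inhibitory interneurons and Bergmann glia, with the cerebellar nuclei and white matter beneath them. Microglia are its resident macrophages. With age, or when they take up myelin or dead cells, microglia in mice are known to switch on a set of genes for lipid handling, lysosomes, lectins and chemokines. Type I and type II interferons act through STAT factors and induce a further set of genes, which includes the immunoproteasome and the class I molecules of the major histocompatibility complex (MHC) that present peptides to T cells. In whole tissue, fewer cells of a type and less RNA per cell cannot be told apart, and the name of a gene list below says where its genes are best known, not which cells held the RNA here.

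Expression was read by short probes, and the results turn on a handful of them, so the first 30 bases are shown of the probes of Cst7, Clec7a, Itgax, Ccl3 and Ifi27l2a, which lead the groups of genes below, written 5′ to 3′, with the positions given in the file headers on the mouse build mm7. The pair for Itgax is shown because its probes disagreed, and the set for Ifi27l2a because the first pair of its probes nearly coincide.
Cst7, chr2:150319611-150319670, plus strand: agagagtcctttgatgacattactggagca
Clec7a, chr6:129485033-129485092, minus strand: ttaataccacccttatttccagtgtggact
Itgax, brighter probe, chr7:124247096-124247155, plus strand: tcccatctacttttgcaacgttggaattga
Itgax, dimmer probe, chr7:124230396-124230455, plus strand: accacttcctcctgtaacttcctcttgaag
Ccl3, chr11:83717761-83717820, minus strand: catgaactgacaaatgtacaatagatgctt
Ifi27l2a, brightest probe, chr12:100937850-100937909, minus strand: ccaaaaggcaccttcagaaccctcactgat
Ifi27l2a, middle probe, chr12:100951375-100951434, minus strand: aggagatgaagttccaaaaggcaccttcag
Ifi27l2a, dimmest probe, chr12:100938562-100938621, minus strand: atgggcttcactgggacaggcattgcagct
The brightest and the middle Ifi27l2a probe are offset by 13 bases and overlap in 47, of which 5 differ, and the places given for them start 13525 bases apart. Which of the neighbouring genes of this family the middle probe reads is therefore uncertain.

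The tissue label was checked against region markers. Of 27 granule cell genes, 24 were higher on the C57BL/6 cerebellum arrays than on the C57BL/6 hypothalamus arrays, with a median log2 difference of 2.01, and 3 of 18 hypothalamus and forebrain genes were higher, with a median of -2.72. Between 78.9% and 92.1% of probes were well above background on each array, no probe was saturated, and the median correlation of an array with the others of its group lay between 0.974 and 0.990. Array precision is limited by the number of arrays and not by a read count.

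A pair of arrays stood apart. On young array 1, Gabra6, the granule cell GABA receptor subunit, was at 12.18 log2 signal against 13.54 to 14.17 on the other 9 young and aged arrays, and Pcp2, a Purkinje cell gene, was at 14.67 against 16.22 to 16.79. This array was the lowest of the 10 for 21 of 27 granule cell genes and the highest for 16 of 21 genes of the cerebellar nuclei and brain stem, among them the serotonin transporter Slc6a4 at 12.29. Tph2, the serotonin-synthesising enzyme, was at 12.12 there. On aged array 1, Ttr, which marks the choroid plexus, was at 5.45 against 10.79 to 13.08 elsewhere, and this array was the lowest for 11 of 14 choroid plexus and ependyma genes. It also held neuropeptide mRNA of the hypothalamus, with vasopressin (Avp) at 12.26 against 5.68 to 8.09 and oxytocin (Oxt) at 11.52 against 7.69 to 8.90 on the other 9. The slides also held unequal mixtures. Slide 1 held young array 1 and aged array 1, slide 2 held young array 2 with aged arrays 2 and 3, slide 3 held young arrays 3 and 4 with aged arrays 4 and 5, and slide 4 held both 12-13 month arrays with aged array 6. Values without these arrays and within slides are given beside the results they touch, and the part of dissection or of slide in any result was not tested.

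**Figure D1:**
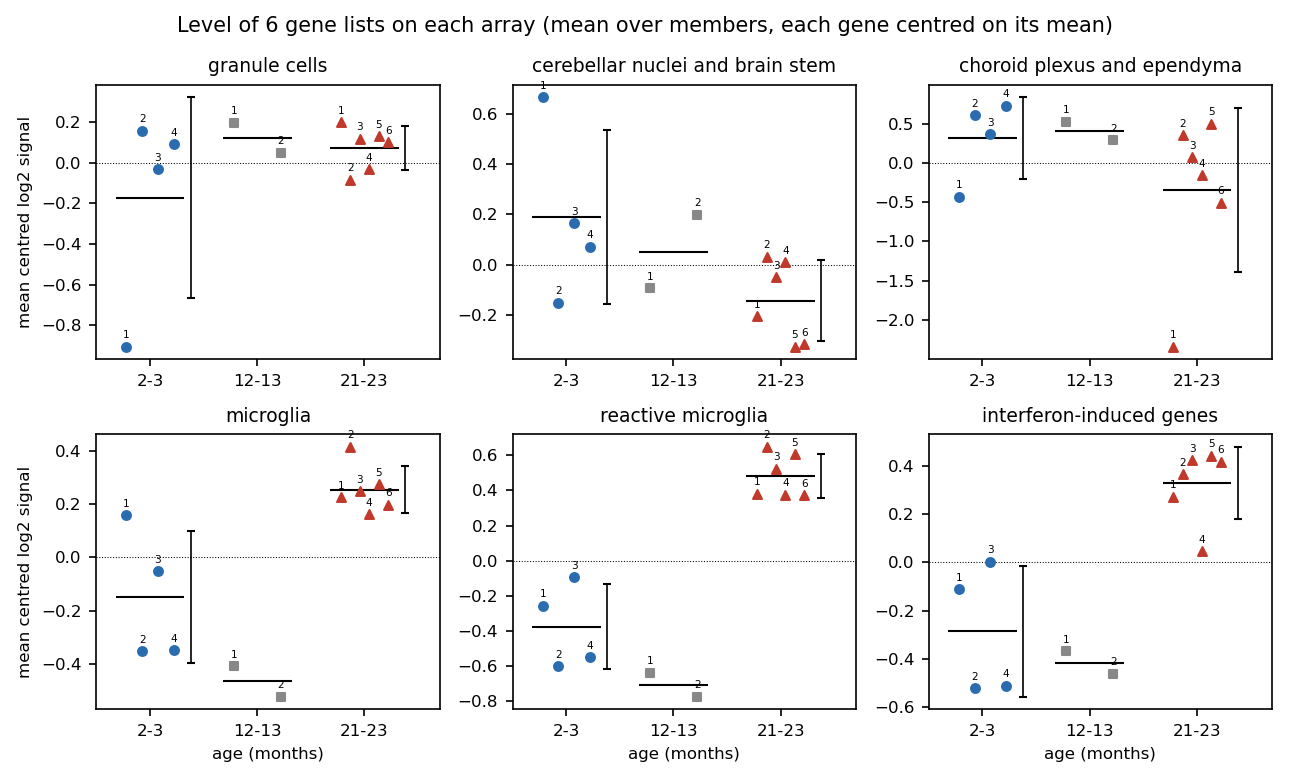
Mean centred log2 signal of 6 gene lists (y axis) on each C57BL/6 cerebellum array against age in months (x axis). Blue circles are 2-3 month arrays, grey squares 12-13 month arrays and red triangles 21-23 month arrays, numbered by array, with the group mean as a line and 1 SD as a bar beside the young and aged groups. Young array 1 is lowest for granule cells and highest for the nuclei and brain stem, and aged array 1 is lowest for the choroid plexus. All 6 aged arrays lie above all 4 young arrays for both microglia lists and the interferon-induced genes. The gap is narrow for microglia (young array 1 at 0.159, aged array 4 at 0.163) and for interferon-induced genes (young array 3 at 0.002, aged array 4 at 0.047).

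Across 22888 genes tested, 91 were called, 0.398% of all, which means that limma gave at least 1 of their probes posterior odds of change better than even (B above 0). Of these, 89 were higher in aged cerebellum, 0.389% of the genes tested, and 2 were lower, 0.00874%. The stricter limit of an adjusted p under 0.05 was met by 12 genes, 0.0524%, so most called genes rest on the B criterion alone. With the slide as a fixed block 41 genes were called and none met the stricter limit. The 12 were Ifi27l2a, Ccl3, Clec4d, Cd84, Ccl6, Ms4a6c, Fcgr1, Bcl2a1b, Lgals3, Nkg7, Gpr65 and Serpinf2, all higher with age. The median log2 difference over all genes was -0.00448, and 11213 of 22888 were higher with age. In 88 of the 91 called genes the values of the 4 young and 6 aged arrays did not overlap. Over all genes, 1.67% had every aged array above every young one and 0.472% the reverse. Most called differences were modest, with 32 above 1 on the log2 scale, a doubling, and 9 above 1.5. Of the 75 called genes singled out by the rule for naming genes, 72 had higher signal in aged mice on each of the 3 slides that held both ages. Gpr17 and Nptx2 were lower on each of these slides, and the brightest probe of Slc1a3 changed direction between them.

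Of the 40 gene lists, which were chosen with earlier results of these data known, reactive microglia genes had the largest share of called members. Of 30 tested, 14 rose and none fell, 27 were higher by any amount, and the median log2 difference over the list was 0.89, or 0.77 without young array 1, against -0.00448 over all genes. Cst7 encodes cystatin F, an inhibitor of lysosomal proteases. Its log2 signal was 7.03, 4.83, 7.63 and 4.51 on young arrays 1 to 4, where 3 were well above background, and 8.56, 8.97 and 9.36 at the lowest, median and highest of the aged arrays. Every aged array was above every young one, and the young arrays themselves spread widely, with arrays 1 and 3 high and 2 and 4 low. The difference was 2.96 ± 0.54 (SE, 4 young and 6 aged), a 7.80-fold rise, with an adjusted p of 0.108 from limma. Within slides 1, 2 and 3 it was 2.15, 4.19 and 2.60. Without young array 2 it was 2.56 and without young array 4 it was 2.45, and in neither case, nor without aged array 2 at 2.85, was Cst7 called.

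Clec7a, the beta-glucan receptor Dectin, was at 8.49, 7.09, 8.69 and 6.92 on the young arrays and between 9.81 and 10.29 on the aged arrays, with a median of 10.08. The groups did not overlap, and the same young arrays were high. The difference was 2.26 ± 0.37 (adjusted p = 0.0696), and Clec7a was not called without young array 2, at 2.01, or without young array 4, at 1.96. Itgax, the CD11c subunit of complement receptor 4 and a dendritic cell marker that activated microglia share, was at 6.90, 5.03, 6.89 and 5.24 on the young arrays and at 7.49, 8.40 and 8.54 at the lowest, median and highest of the aged arrays. The groups again did not overlap and the difference was 2.22 ± 0.43 (adjusted p = 0.138). The dimmer Itgax probe shown above differed by -0.17 and was not called, so the rise was seen with 1 of 2 probes. Leaving out any 1 array other than young arrays 1 and 3 and aged array 4 ended the Itgax call, with differences from 1.88 without young array 2 to 2.24.

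Lgals3, which encodes galectin-3, a secreted and lysosomal sugar-binding protein, was steadier. Its log2 signal was 8.51, 9.31, 9.71 and 9.19 on the young arrays and lay between 10.43 and 10.61 on all 6 aged arrays. The aged arrays were nearly level and all above the young ones, of which array 1 was lowest. The difference was 1.35 ± 0.18 (adjusted p = 0.0373) and 2.08, 1.12 and 1.15 within slides 1 to 3. The other called members were Cd52 (1.48), a surface glycoprotein of leukocytes; Ch25h (1.45), which makes 25-hydroxycholesterol; the inhibitory receptor Lilrb4a (1.38); Gpnmb (1.19) and Cd68 (0.91), membrane glycoproteins of lysosomes; lysozyme Lyz2 (1.16); the lipoprotein sensor Tlr2 (0.92); the chemokines Ccl3 and Ccl6; and the actin-capping protein Capg (0.59). Lyz2 and Lyz1 (1.26) are near-identical copies whose probes can read each other. Members that were not called included Apoe at 0.04, Axl at 0.02, Csf1 at 0.13, Lpl at 0.22, Igf1 at 0.27 and Spp1 at -0.32, so the lipoprotein and lipase genes of the same textbook program did not pass the test.

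**Figure D2:**
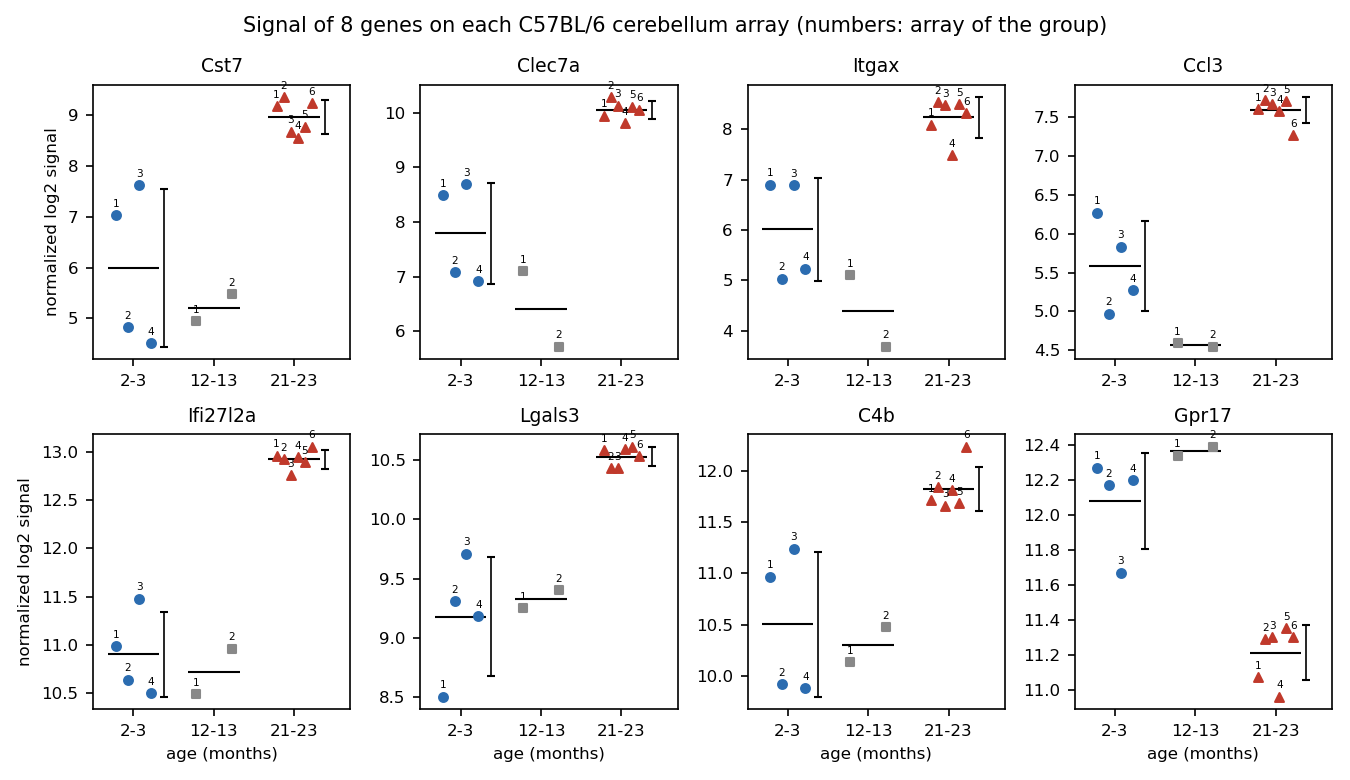
Normalized log2 signal (y axis) of Cst7, Clec7a, Itgax, Ccl3, Ifi27l2a, Lgals3, C4b and Gpr17 on each array against age in months (x axis), with each array numbered within its group, the group mean as a line and 1 SD as a bar for the young and aged groups. The aged arrays do not overlap the young ones in any of the 8 genes, and Gpr17 alone is lower with age. The 12-13 month arrays lie near the young ones, and partly below them for Clec7a, Itgax and Ccl3.

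General microglia genes moved less than the reactive set. Of 27 tested, 6 rose and none fell, with a median of 0.34, or 0.45 without young array 1. Within slides 1, 2 and 3 the median was 0.08, 0.66 and 0.30. The called members were the lipid receptor Trem2 (0.996 ± 0.17, adjusted p = 0.0730), its signalling partner Tyrobp (0.91), the pore-forming protein Mpeg1 (0.89), the complement subunits C1qb (0.65) and C1qc (0.73) and the transcription factor Irf8 (0.58). Genes known for surveying microglia were not called, with Cx3cr1 at 0.05, P2ry12 at 0.03, P2ry13 at 0.17, Csf1r at 0.23 and Tmem119 at 0.38, and Aif1, which encodes Iba1, was at 0.79 without passing. Trem2 was not called without young array 2, at 0.92, or without young array 4, at 0.85. Border macrophage genes had 0 of 9 called and a median of 0.14.

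The list of Fc receptor and ITAM signalling genes held activating and inhibitory members. It had 8 of 30 called, all higher, and 29 of 30 higher by any amount (median 0.53). Fcgr1, the high-affinity IgG receptor, lay between 9.65 and 9.83 on the young arrays and at 10.33, 10.56 and 10.66 at the lowest, median and highest of the aged arrays. The 4 young arrays were close together and all below the aged ones, and the difference of 0.78 ± 0.10 had an adjusted p of 0.0363. The inhibitory receptors Fcgr2b (0.62), Pirb (1.02) and Lilrb4a rose alongside the activating adaptors Tyrobp and Hcst (0.80), as did Trem2 and the inhibitory phosphatase Ptpn6 (0.72). Fcgr3 at 0.59, Fcgr4 at 0.71 and the common gamma chain Fcer1g at 0.70 were not called.

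Of 38 chemokines and their receptors, which guide leukocytes into tissue, 7 rose and none fell, and the list median was 0.24. Ccl3, a chemokine that attracts monocytes, was at 6.27, 4.97, 5.83 and 5.28 on the young arrays and at 7.26, 7.64 and 7.72 at the lowest, median and highest of the aged arrays. No aged array came near a young one, and aged array 6 was the lowest of its group. The difference was 2.00 ± 0.22 (adjusted p = 0.00989), with 1.33, 2.72 and 2.08 within slides 1 to 3. Its neighbour in function Ccl4 differed by 2.19 ± 0.45 but was not called (adjusted p = 0.193); its probe has no value on young array 1, which the fit left out.

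The other called chemokines were Ccl8 (1.72), Ccl12 (1.23), Ccl5, Ccl2 (1.03) and Ccl6 (0.91), and Cxcl13 (1.82), which draws B cells. Ccl5 was at 1.17 by its brightest probe and was called by the other, at 1.39. Cxcl13 was dim, between 3.61 and 4.16 on the young arrays, where 2 of 4 were well above background, and between 4.51 and 6.89 on the aged arrays. Its adjusted p was 0.186, and it lost its call without any of the young arrays, 1 at a time, and without each aged array but number 6. Among the secreted cytokines none of 23 was called, with Tnf at 1.04 (adjusted p = 0.405) and Il1b at 0.59, and none of 25 genes of the NF-kB pathway was called, with a median of 0.06.

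Lectins that recognise sugars on microbes and dying cells had 4 of 19 called, all higher, with a median of 0.31. Beside Clec7a and Lgals3 these were Lgals3bp (0.996), a galectin-binding glycoprotein, and Clec4d, a C-type lectin. Clec4d lay between 3.46 and 4.21 on the young arrays, only 1 of which was well above background, and between 5.13 and 5.84 on the aged arrays, all above background. The groups did not overlap and the difference was 1.67 ± 0.18 (adjusted p = 0.00989), a value set by dim signals on the young side. Of the Toll-like receptor and inflammasome genes 4 of 27 rose, namely Tlr2, its co-receptor Cd14 (0.65), the caspase Casp1 (0.88) and the adaptor Pycard (0.50 by its brightest probe, called by the other), and the list median was 0.37.

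Interferon-induced genes were higher almost throughout. Of 54 tested, 52 were higher, 12 rose past the test and none fell, with a median of 0.58, or 0.69 without young array 1. Ifi27l2a, a small interferon-induced membrane protein, had the lowest p of all genes. Its log2 signal was 10.99, 10.64, 11.48 and 10.50 on young arrays 1 to 4 and 12.76, 12.93 and 13.05 at the lowest, median and highest of the aged arrays. The aged arrays spanned a narrow range far above the young ones. The difference was 2.02 ± 0.18, a 4.05-fold rise, with an adjusted p of 0.00238, and it was 1.97, 2.20 and 1.93 within slides 1, 2 and 3. The other probes of the gene gave 1.98 and 1.93.

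The remaining called members covered several steps of the interferon response. Usp18 (1.17 ± 0.21, adjusted p = 0.108) removes ISG15 from proteins and dampens the receptor, Bst2 (1.102) tethers enveloped viruses at the cell surface, and Oas1a (1.01) senses double-stranded RNA. Rtp4 (0.93), Ifi27 (0.90), Slfn2 (0.87) and the GTPase Irgm1 (0.72) are further induced genes, and Irf8, Lgals3bp and the immunoproteasome subunits Psmb8 (0.78) and Psmb9 (0.65) complete the set. Classical members such as Ifit1 at 0.98 (adjusted p = 0.211), Mx1 at 1.49, Oas2 at 1.25 and Ifi44 at 0.57 were not called, and Ifi44l at -0.20 (no value on young array 4) and Ifitm2 at -0.12 were the only ones lower. Ifi204 (1.34) and Oas1f (0.91), which belong to interferon-induced families but to no list, were also called. Young arrays 1 and 3 both stood above young arrays 2 and 4 in 44 of the 54 genes, in 18 of 30 reactive microglia genes and in 70 of the 89 genes called higher (78.7%), against 26.2% of all genes. Without young array 2 the interferon members Usp18, Oas1a, Rtp4, Irgm1, Psmb8 and Psmb9 were not called, at 1.01, 0.92, 0.78, 0.64, 0.65 and 0.60. Without young array 4 they were not called either, at 1.03, 0.86, 0.82, 0.63, 0.72 and 0.58, whereas Ifi27l2a and Bst2 stayed called when any array was left out.

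Because these genes are known by their promoters, the windows from 250 bases before to 50 bases after the start of each gene were searched in the RefSeq promoter table of build GRCm38.p6, which held 13711 of the tested genes. The interferon-stimulated response element was searched as GAAANNGAAA and the STAT site as TTCNNNGAA, each on both strands, and a match is only a match of letters. The first was in 3.69% of all tested promoters, in 20 of 39 promoters of the interferon list (51.3%) and in 3 of 8 of its called members. The second was in 8.53% of all, 13 of 39 (33.3%) and 4 of 8. Over the called genes of any kind each was in 7 of 61 promoters (11.5%), and neither was in any of the 12 promoters of called reactive microglia genes. Stretches around the response element of called genes are shown because they carry the letters shared across different chromosomes, with the matches in capitals and the distance from the first capital to the start of the gene. Matches in Clec4d, at the start of the gene, and in Cd300c2, after it, are not shown. In Bst2, Oas1a and Irgm1 a pair of matches overlaps.
Bst2, chr8:71537567-71537622, minus strand, 130 bases before the start: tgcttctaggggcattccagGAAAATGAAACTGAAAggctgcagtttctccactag
Oas1a, chr5:120907510-120907565, minus strand, 20 bases before: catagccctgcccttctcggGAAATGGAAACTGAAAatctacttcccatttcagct
Irgm1, chr11:48871415-48871470, minus strand, 30 bases before: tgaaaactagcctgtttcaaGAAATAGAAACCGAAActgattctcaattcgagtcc
B2m, chr2:122147528-122147577, plus strand, 139 bases before: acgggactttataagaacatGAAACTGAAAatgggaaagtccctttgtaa
Ifi211, chr1:173913054-173913103, minus strand, 37 bases before: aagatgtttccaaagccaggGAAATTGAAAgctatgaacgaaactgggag

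Of 22 MHC class I genes tested, 7 were called, all higher, and 19 were higher by any amount (median 0.38). H2-Q8 differed by 1.08 ± 0.19 (adjusted p = 0.0763), H2-Q1 by 0.57, H2-Q7 by 0.45 and H2-D1 by 0.43, and Psmb8 and Psmb9, which trim peptides for these molecules, belong to this list too. The class I heavy chains are close copies of one another, so their probes may read several genes. H2-Q1 had a second probe at -0.49, and H2-K1 at 0.56 was not called. B2m, the shared light chain, was called by its middle probe at 0.57, while its brightest probe was at 0.37 with aged array 6 the lowest of all at 13.71. None of 9 MHC class II genes was called, although all 9 were higher, with a median of 0.20.

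Complement genes had 4 of 24 called, all higher, with a median of 0.34. C4b, the complement component that deposits on surfaces after C1 is triggered, was at 10.97, 9.93, 11.24 and 9.88 on the young arrays and at 11.66, 11.76 and 12.23 at the lowest, median and highest of the aged arrays. The groups did not overlap, young arrays 2 and 4 were low, and aged array 6 stood above the rest of its group. The difference was 1.32 ± 0.26 (adjusted p = 0.152), but the call was lost when any array other than young array 1 or 3 was left out, with differences from 1.11 to 1.35. The initiator subunits C1qb and C1qc and the receptor subunit Itgax were the other called members. C1qa at 0.75 (adjusted p = 0.202) and the central component C3 at 0.95 (adjusted p = 0.295) were not called. Of 40 lysosome genes 6 rose, with a median of 0.08, and they were those already met, Cst7, Lyz1, Lyz2, Gpnmb and Cd68, with the cathepsin Ctsh at 0.40.

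**Figure D3:**
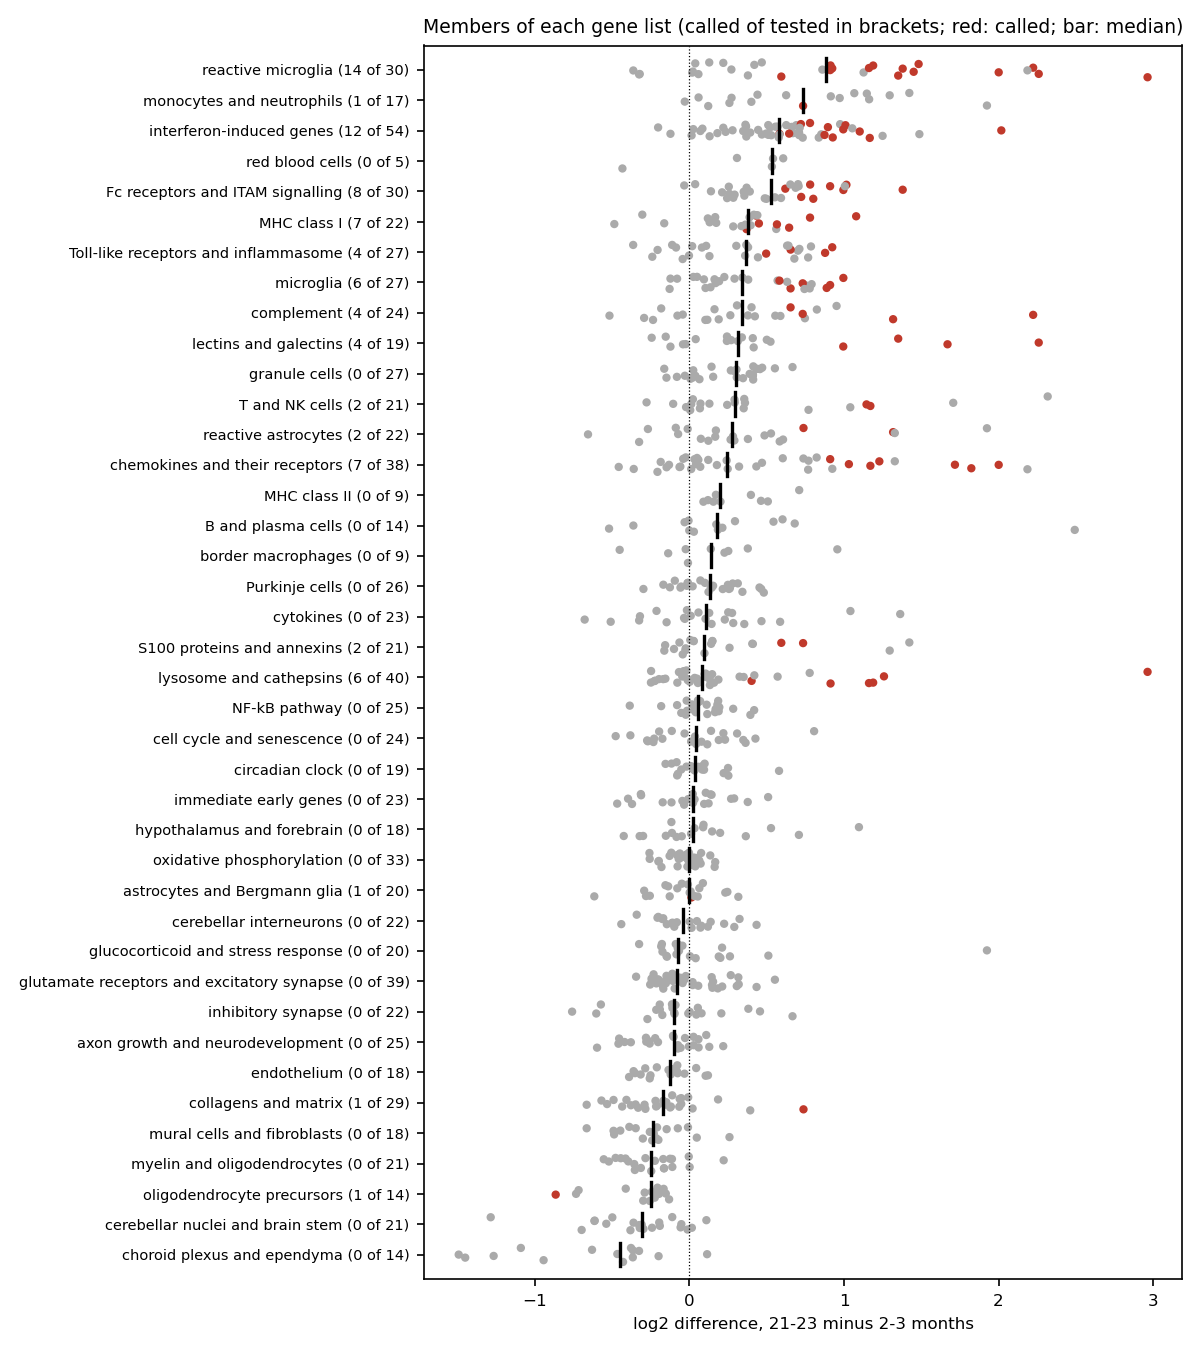
Log2 difference between 21-23 and 2-3 months (x axis) of every tested member of 40 gene lists (y axis, ordered by their median, with called of tested members in brackets). Grey points are genes not called, red points are called genes and bars are list medians. The lists were chosen with earlier results of these data known. Reactive microglia genes have the highest median, 0.89, with 14 of 30 called, and the choroid plexus list the lowest, -0.45, with none called.

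The genes that fell with age were Gpr17 and Nptx2. Gpr17, a receptor of precursors that are about to become myelinating cells, was at 12.27, 12.17, 11.67 and 12.20 on the young arrays and at 10.96, 11.29 and 11.35 at the lowest, median and highest of the aged arrays. Even young array 3, the lowest of its group, was above every aged array. The difference was -0.86 ± 0.13 (adjusted p = 0.0570), with -1.20, -0.88 and -0.77 within slides 1 to 3. Its dimmer probe differed by -0.31 and was not called. Without young array 4 the difference was -0.83 and Gpr17 was not called.

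Every one of the 14 oligodendrocyte precursor genes was lower with age, by a median of -0.25, and Gpr17 was the only called one. This median was -0.16 without young array 1 and -0.12 without young array 1 and aged array 1. C1ql1 was at -0.73 (adjusted p = 0.360). Of 21 myelin genes, 19 were lower with a median of -0.25 and none was called, with Mog the lowest at -0.55. Young array 1 had the highest mean level of the young arrays for both lists, and aged array 1 had the lowest level of all arrays for the precursors, at -0.474. Within slide 1 alone the precursor median was -0.75, against -0.09 within slide 2.

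Nptx2, a secreted pentraxin that gathers AMPA receptors at synapses, was at 8.16, 8.11, 7.54 and 8.16 on the young arrays and between 6.99 and 7.45 on the aged arrays. The groups did not overlap but young array 3 came close to the aged ones. The difference was -0.73 ± 0.15 (adjusted p = 0.161), and the call held only without young array 3 or aged array 4 among the arrays left out 1 at a time, with differences from -0.67 to -0.76 where it was lost. None of 39 genes of excitatory synapses, 22 of inhibitory synapses or 23 immediate early genes was called, and their medians were -0.08, -0.10 and 0.02.

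Lists for the main cerebellar cell types had few or no called genes. Granule cell genes had 0 of 27 called and a median of 0.30, which was 0.01 without young array 1, and Purkinje cell genes had 0 of 26 and medians of 0.13 and -0.12. Cerebellar interneurons had 0 of 22 called (median -0.04), the nuclei and brain stem 0 of 21 (median -0.31, or -0.17 without young array 1), and oxidative phosphorylation 0 of 33 (median -0.00254). Of 20 genes of astrocytes and Bergmann glia, Slc1a3, the glutamate transporter of Bergmann glia, was called by its dimmest probe at 0.52 while its brightest was at 0.01. Reactive astrocyte genes had C4b and Timp1 (0.74), an inhibitor of metalloproteinases, among 22, and Gfap was at 0.61 and Serpina3n at 0.12 without passing. Endothelium had 3 of 18 genes higher (median -0.13), mural cells and fibroblasts 2 of 18 (median -0.24) and collagens and matrix 4 of 29 (median -0.17), with Timp1 the only called gene among them. Without young array 1 and aged array 1 these medians were -0.05, -0.26 and -0.10. Within slides 1, 2 and 3 the endothelium median was -0.595, -0.03 and -0.01. That of collagens and matrix was -0.48, -0.18 and -0.18, and that of mural cells and fibroblasts -0.23, -0.33 and -0.16.

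Blood-borne cells were sampled with less certainty. In the monocyte and neutrophil list S100a4 (0.74) was the only called gene of 17, yet the median was 0.74, or 0.48 without young array 1. S100a8, a neutrophil protein, was at 7.14, 9.23, 9.53 and 7.33 on the young arrays and between 9.003 and 10.91 on the aged arrays. The groups overlapped, with young arrays 1 and 4 low, and the difference of 1.42 had an adjusted p of 0.631. Lcn2 at 1.93 was not called either. Of 21 T and NK cell genes, Nkg7, a protein of cytotoxic granules, rose by 1.15 ± 0.16 (adjusted p = 0.0444) from 6.14 to 6.77 on the young arrays to 7.25 to 7.96 on the aged ones, and Ccl5 was the other called gene. The T cell receptor chain Cd3d at 1.04 and the coreceptor Cd8a at 1.71 were not called. The protease gene Gzmk was well above background on none of the young and 5 of the aged arrays and was not called. B and plasma cell genes had 0 of 14 called, with the immunoglobulin probe Igh-VJ558 at 2.49 ± 0.66 (adjusted p = 0.413), and red blood cell genes 0 of 5.

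Of the 91 called genes, 33 were in none of the lists. The largest of these was Mela (2.23 ± 0.38), a gene of endogenous retroviral origin, which was between 9.16 and 11.38 on the young arrays and between 11.64 and 12.55 on the aged arrays. The groups did not overlap, but young array 3 was close to the aged ones, and Mela lost its call without young array 2, at 1.98, or without young array 4, at 2.12. Others were Cd48 (1.09) and its relatives of the SLAM family Slamf9 (1.11) and Cd84 (0.87), the B cell and myeloid receptor Cd72 (0.92), the CD300 family receptor Cd300c2 (0.90) and Ms4a6c (0.70). Cd84 lay between 6.61 and 7.16 on the young arrays and between 7.64 and 7.77 on the aged arrays and was among the tightest (0.87 ± 0.11, adjusted p = 0.0286). Gpr65 (0.95 ± 0.13), a receptor that senses acid outside the cell, Bcl2a1b (1.103 ± 0.15), a survival protein of the BCL2 family, and Serpinf2 (1.07 ± 0.15), the inhibitor of plasmin, all had non-overlapping groups. Slc15a3 (0.98), which carries peptides out of lysosomes, the secreted Wfdc17 (0.91), BC013672 (0.86) and the pseudogene Pisd-ps3 (1.30, groups overlapping) complete the 15 largest.

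The 12-13 month arrays were near the young ones or below them. For Clec7a they were at 7.10 and 5.72, against 6.92 on the lowest young array, and for Ifi27l2a at 10.49 and 10.96. In mean level both were below every young array for reactive microglia genes, at -0.638 and -0.775 against a young lowest of -0.602. The same held for microglia genes, at -0.408 and -0.523 against -0.353. For interferon-induced genes, at -0.369 and -0.461, they lay within the young range. In 82 of the 89 genes called higher, both 12-13 month arrays lay below every aged array, in 75 both were at or below the highest young array, and in 68 their mean was below the mean of the young arrays. With 2 arrays, which share slide 4 with aged array 6 only, no test of this age was made.

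Clec7a, as the receptor among the genes of largest difference, was used to ask which genes ran alongside it from array to array. Over the 12 arrays of the cohort the highest Pearson correlations with its brightest probe were those of Itgax (0.992), Gpr65 (0.986), Usp18 (0.984), Ifit1 (0.984) and Oas1a (0.982). These values are a description: the arrays share an age difference, a young group with arrays 1 and 3 high, and common slides.

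The age difference was set beside those in hypothalamus, in fits that normalised both cohorts together and tested the difference between their age differences. Young mice were 2-3 months old in each cohort, but aged mice were 22-24 months old for C57BL/6 hypothalamus and 20-23 months for BALB hypothalamus. The 88 genes called higher in C57BL/6 cerebellum and measured in both had a median log2 difference of 0.93 in that joint fit. In C57BL/6 hypothalamus, with 5 young and 5 aged arrays, 82 of them were also higher, with a median of 0.29, and none was called there, against 58 of 21752 genes, 0.267%. Tissue, the range of aged ages and scanner software version all differ between these cohorts and cannot be told apart. The difference between the cohorts was called for 12 genes, 0.0552%, none of them an immune gene of the lists above. None of the 12 had an adjusted p under 0.05, while 1458 genes had an unadjusted p under 0.05. No gene was called without young array 1, young array 4 or aged array 1, and 1 without young array 2. The standard errors in that hypothalamus cohort were large. Cst7, for example, differed by 1.21 ± 1.05 there against 3.17 in cerebellum, and the test of the difference, 1.96 ± 1.5, did not pass (adjusted p = 0.960). A larger value in cerebellum was seen in 87 of the 88 genes, but the genes were chosen for their rise in cerebellum. That count and the larger median in cerebellum have no independent weight.

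In BALB hypothalamus, with 7 young and 6 aged arrays, 81 of the 82 genes measured in both were higher with age, and 45 were called, against 139 of 18050 genes, 0.77%. Their medians were 0.97 in cerebellum and 0.66 in BALB hypothalamus, but the genes were chosen for their rise in cerebellum, so the larger median there has no independent weight. Strain, tissue, the range of aged ages, slides and scanner software version all differ between these cohorts and cannot be told apart. Clec7a differed by 2.53 in cerebellum and by 2.14 ± 0.29 in BALB hypothalamus, a difference of 0.39 ± 0.44, and Itgax by 2.61 and 2.47 ± 0.33, a difference of 0.14 ± 0.51. Neither difference passed the test, and intervals of that width do not show that the values are alike.

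Ifi27l2a behaved otherwise. It differed by 2.11 in C57BL/6 cerebellum and by 0.32 ± 0.18 in BALB hypothalamus, and the difference of 1.79 ± 0.28 was the only one with an adjusted p under 0.05, at 0.0477, although its B was not above 0. No gene met that limit with 75th percentile scaling, with no filter on dim probes or with a replicate block. The same held when any cerebellum array other than young array 3 was left out, and hypothalamus arrays were not left out in turn. By B, 0 of 18050 genes were called in this comparison (0%), and 1171 had an unadjusted p under 0.05. Spp1, which encodes osteopontin, ran the other way, at -0.33 in cerebellum and 1.69 ± 0.22 in BALB hypothalamus, with a difference of -2.02 ± 0.34 (adjusted p = 0.0513). Cxcl13 at 1.84 and 3.77 and Lyz2 at 1.19 and 1.96 were larger in BALB hypothalamus, with differences of -1.93 ± 0.63 and -0.77 ± 0.32 that did not pass.

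**Figure D4:**
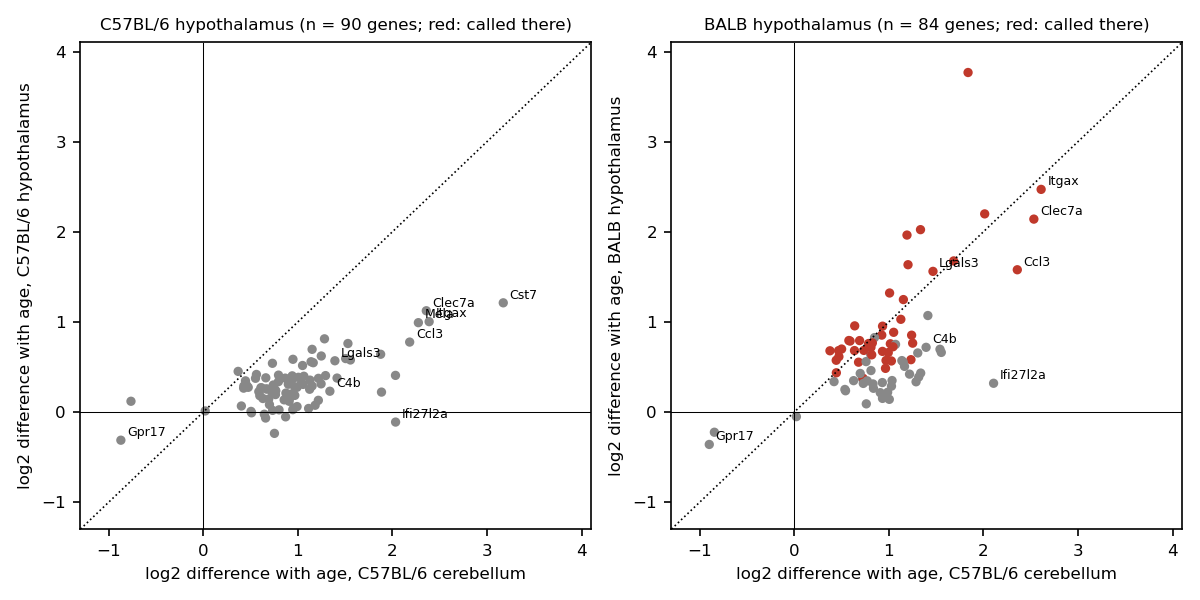
Log2 difference with age in C57BL/6 cerebellum (x axis) against that in C57BL/6 hypothalamus or BALB hypothalamus (y axis) for the genes called in cerebellum, with red for genes also called in the second cohort. Few points lie below 0 on the y axis, and Ifi27l2a lies far to the right and close to 0 for both hypothalamus cohorts. The values in C57BL/6 hypothalamus are mostly smaller than in cerebellum, where the genes were chosen, so this has no independent weight.

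How far the calls rest on single arrays was measured by leaving out each in turn. The count of called genes ran from 17 without young array 4 and 29 without young array 2 to 129 without young array 3, and was 95 without young array 1, of which 70 were among the 91. Without aged arrays 2, 3 and 5 it was 54, 52 and 54. Of the 75 called genes singled out by the rule for naming genes, 49 were not called without young array 2 and 59 without young array 4, the pair that lay below young arrays 1 and 3 in most genes called higher. Of the 75, 13 were called under 20 of the 21 alternative settings, the exception being a block for replicate number, under which no gene was called. These were Ifi27l2a, Ccl3, Lgals3, Cd52, Ccl6, Fcgr1, Bst2, Nkg7, Cd84, Gpr65, Bcl2a1b, Slamf9 and Wfdc17. With the slide as a fixed block 43 of the 75 were not called. None of the 75 changed direction under these settings.

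**Figure D5:**
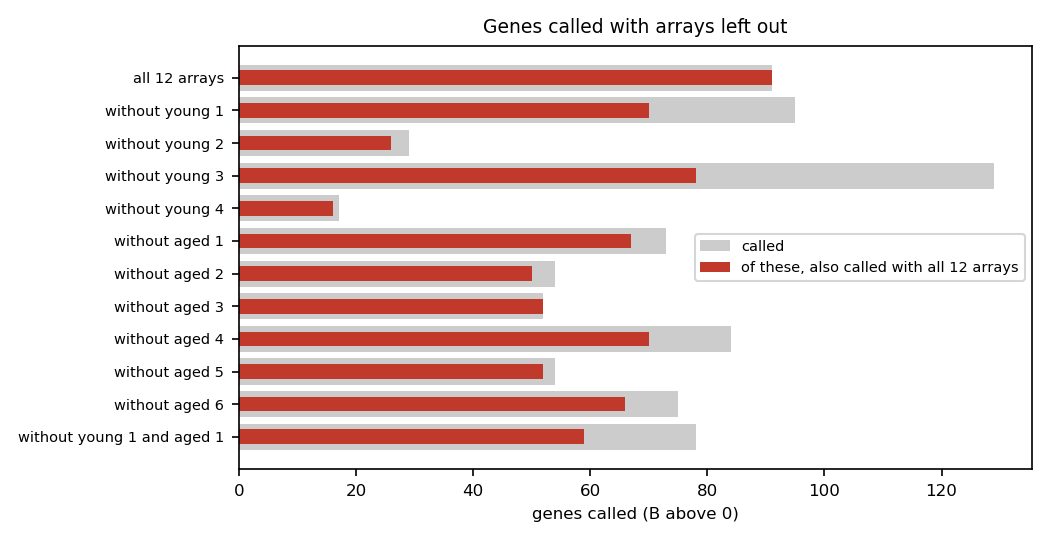
Number of genes called with B above 0 (x axis) with all 12 arrays and with each young or aged array, or both arrays that stood apart, left out (y axis). Grey bars are all called genes and red bars those also called with all arrays. The count is 91 with all arrays, 17 without young array 4, 29 without young array 2 and 129 without young array 3.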

How the data were processed

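The authors hybridised Cy3-labelled amplified RNA to 1-colour Agilent arrays, kept 1 of 2 technical replicates per mouse, and deposited scanner files whose background-corrected signal intensity (gProcessedSignal) was used here. Per the file headers, Agilent Feature Extraction 10.5.1.1 made those of the C57BL/6 cerebellum, 10.1.1.1 those of the C57BL/6 hypothalamus and 9.1.3.1 those of the BALB hypothalamus. Processed log2 values, deposited for the whole series, served as an alternative. Their scale and centring were checked against the scanner values: each of the 12 cerebellum columns matched best an array of its own age, but only 4 the array of its own label, so the numbering there is unsure. The other 92 columns were not used. The authors' methods name quantile normalization and limma's B statistic.

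Here, control spots and spots flagged as outliers in the scanner files were left out, and log2 intensities of the spots of a probe were averaged. The probe values were then quantile normalized within the cohort of 12 arrays. Probes well above background on at least 4 of the 10 young and aged arrays were kept, 34760 of 41174. R 4.3.3 with limma 3.58.1 fitted the 3 ages (lmFit, eBayes, prior proportion 0.01), with 9 residual degrees of freedom. A gene counts as called when B exceeds 0 for at least 1 probe, and its values are those of its brightest probe; p-values were adjusted by Benjamini-Hochberg over all probes. Scripts were tested on simulated data. Names came from the files, updated through RefSeq accessions for 24844 probes and aliases or older names for 2602. Named genes are all called list members, the 15 largest called genes in no list, genes that fell, the 10 lowest p-values, up to 6 uncalled members per list in list order, the 10 largest of the interaction and the 5 most like Clec7a; others singled out (such as Tnf, Mx1, Oas2, Gzmk, Cd8a, Igh-VJ558, Ifitm2, C1ql1 and Mog) were chosen after their values were seen. Members and lists were chosen with earlier results of these data known. Each array is a separate mouse. The alternatives were scaling to the 75th percentile, normexp with an offset of 50 on median signals in place of the planned mean signals, filters, slides, arrays left out, a trended prior and a replicate block.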

Additional observations from a re-analysis of the deposited data

Results flagged for a closer look

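The arrays were screened for values that stand apart within a group, by the gap to the nearest array as a share of the group's range. Of 262 groups tested 19 passed the limit, and chance alone passes about 1 in 20. Among the young arrays, young array 1 was low for the Purkinje cell list (0.851 of the range) and young array 4 for Pycard (0.904). Young array 3 was high for the hypothalamus and forebrain list (0.938) and for the unnamed transcript NAP027924-1 (0.864) and low for both genes that fell with age, Nptx2 (0.905) and Gpr17 (0.834). Among the aged arrays, aged array 1 was low for the Fc receptor list (0.735), the choroid plexus list (0.646), the axon growth list (0.794) and Bst2 (0.656). Aged array 6 was low for the cell cycle list (0.640), Ccl3 (0.685), BC013672 (0.680), Hvcn1 (0.654), B2m (0.837) and Slc1a3 (0.625), and high for C4b (0.687) and Tnfaip8l2 (0.733), and aged array 4 was high for Zc3hav1 (0.659). Aged array 6 shares its slide with the 12-13 month arrays only, and the part of the slide was not tested.

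The age difference in C57BL/6 cerebellum was smaller than in C57BL/6 hypothalamus, by B above 0, for Tnnt1 (-2.78 on the log2 scale), Synpo2 (-1.95), Grid2ip (-1.84), Wnt9a (-1.56), Plekhg1 (-1.55), Gpr4 (-1.50), Tcf7l2 (-1.50), Mrvi1 (-1.48), Vav3 (-1.35) and Medag (-0.813), and for Ntng1 and Chrna4. None of these had an adjusted p under 0.05, and none was called without young array 1, young array 4 or aged array 1. Tnnt1, a troponin subunit whose probe has no value on young array 1, differed by -0.41 in cerebellum and 2.37 in hypothalamus, Synpo2, an actin-binding protein, by -0.04 and 1.91, and Tcf7l2, a transcription factor of the Wnt pathway, by -0.30 and 1.20. The age difference of Ifi27l2a exceeded that in BALB hypothalamus by 1.79 at an adjusted p of 0.0477 from limma. The limit of 0.05 was no longer met with 75th percentile scaling, no filter, a replicate block or any cerebellum array other than young array 3 left out.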

How the results depend on the processing

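Against 91 called genes in the aged and young comparison, the fit with the slide as a fixed block called 41, of which 34 were shared. Leaving out 1 array gave 17 to 129. The limit of an adjusted p under 0.05, met by 12 genes, was met by 1 with 75th percentile scaling, 55 with normexp, 6 with no filter, 35 with the strict filter, 61 with a trended prior, 42 with the series table, 0 with the slide as a fixed block, 4 without young array 1 and aged array 1 (an alternative chosen after seeing the data), and 1 to 37 leaving out 1 array. The difference from C57BL/6 hypothalamus, called in 12 genes, was called in 5 with 75th percentile scaling, 3 with no filter, 0 without both arrays and 0 to 18 leaving out 1 cerebellum array. That from BALB hypothalamus, called in 0, was called in 0 to 5 (5 without young array 3). Hypothalamus arrays were not left out in turn. The causes of these shifts were not tested.

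Young and aged arrays share replicate numbers, but the numbers did not pair the samples: correlations of deviations were 0.0279, -0.00797, -0.0754 and 0.0543, and no young array matched best the aged array of its own number. With the replicate block 0 genes were called, 0 met the adjusted limit and 0 differed from C57BL/6 hypothalamus; this fit has few residual degrees of freedom.

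Limits are few arrays, a young group split into arrays 1 and 3 and arrays 2 and 4, tissue markers that stand apart on young array 1 and aged array 1, and dim probes such as Clec4d and Cxcl13, whose signals lie near background on young arrays.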

Other observations

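Genes of axon growth and neuronal development were mostly lower with age, 18 of 25 with a median of -0.10, and none was called. Sox11, a transcription factor of young neurons, was at 7.85, 8.10, 7.62 and 8.06 on the young arrays and between 6.71 and 7.67 on the aged arrays. The groups overlapped by aged array 4 alone, and the difference of -0.60 ± 0.17 had an adjusted p of 0.488. Slit2, a guidance cue, was at -0.45 and Igfbp2, a carrier of insulin-like growth factors, at -0.46 without passing.

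Lists tied to daily rhythm, stress and division had no called genes. These were the circadian clock (0 of 19, median 0.03), the glucocorticoid and stress response (0 of 20, median -0.07) and cell cycle and senescence (0 of 24, median 0.04). Of 21 S100 proteins and annexins, S100a4 and Capg rose and the median was 0.10. Pomc, the precursor of melanocortins, was at 12.81 on aged array 4 against 9.80 to 10.91 on the other young and aged arrays.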
